A study of Homo sapiens with 15 samples.

Results

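IL7R, IL7, TSLP and IL2RG are the receptor chains and ligands of interleukin 7 and thymic stromal lymphopoietin, and these 4 of the 23368 genes in the count table were followed across all 15 clone and dose columns. They were selected by name with measured values of the same libraries known, so their levels and dose slopes are given as a description, with no p-value. Clones WT6 and WT10, each grown from a single cell, carry a doxycycline-inducible wild type RBM47, an RNA-binding protein, and MUT3 carries the inducible frameshift mutant RBM47-I281fs. The doses were 0, 1, 2.5, 5 and 25 ng/ml for every clone. A single library was made of each clone at each dose, without replicates, so a ratio between 2 libraries carries a 95% interval for counting error only. The sample labels call every clone MDA231, a triple negative breast cancer line, whereas the study's methods derive WT10 and MUT3 from its brain metastatic derivative and WT6 from CN34-BrM2, a brain metastatic derivative of another line. All groups therefore carry an RBM47 transgene, and each combination of genotype and line used is represented by a single clone. Differences between WT6 and the other clones cannot be told apart from differences between parental lines. Likewise, differences between WT10 and MUT3 cannot be told apart from differences between clones grown from single cells.

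The receptor for IL-7 pairs the alpha chain made from IL7R with the common gamma chain made from IL2RG, which is shared with the receptors for several other interleukins. TSLP, a cytokine released by epithelial cells, is sensed by the same IL7R chain paired with CRLF2 in place of the gamma chain. Binding of IL-7 activates the kinases JAK1 and JAK3, which phosphorylate STAT5 proteins and feed the PI3K and AKT route. In lymphocytes this pathway maintains development and survival, partly through BCL2, and loss of IL7R or IL2RG function causes severe combined immunodeficiency.

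On hg19 in GENCODE release 44, IL7R lies on the plus strand at chr5:35852797-35879705, with no overlapping gene. IL2RG lies on the minus strand at chrX:70327254-70331958 and has 1 overlapping gene on its own strand. TSLP lies on the plus strand at chr5:110405760-110413724 and overlaps 1 gene on the opposite strand. The canonical transcripts measure 4584 bases for IL7R, 1480 for IL2RG and 2610 for TSLP. The promoters of the 2 receptor chains are shown because their mRNAs were higher at every successive dose in WT10 cells. Each sequence is the 250 bases before the RefSeq start on GRCh38.p14, in the direction of the gene, with matches to the searched motifs in capitals.
IL7R, plus strand, chr5:35856641-35856890: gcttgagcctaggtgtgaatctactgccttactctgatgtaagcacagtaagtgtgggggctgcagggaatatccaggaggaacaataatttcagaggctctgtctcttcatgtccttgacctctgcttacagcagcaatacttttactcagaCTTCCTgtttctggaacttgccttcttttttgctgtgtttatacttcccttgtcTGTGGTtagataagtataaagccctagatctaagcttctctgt
IL2RG, minus strand, chrX:71111578-71111827: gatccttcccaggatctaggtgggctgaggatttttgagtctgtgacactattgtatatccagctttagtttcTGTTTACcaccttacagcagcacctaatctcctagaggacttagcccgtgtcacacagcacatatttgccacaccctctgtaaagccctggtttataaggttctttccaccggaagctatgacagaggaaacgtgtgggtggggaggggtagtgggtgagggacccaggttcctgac
The letters searched on both strands were AGGAAG for ETS factors, TGTGGT for RUNX factors, TTCNNNGAA for STAT factors, GTAAACA for FOXO factors and TGANTCA for AP-1. In the IL7R window the ETS letters matched on the opposite strand, beginning 97 bases before the start, and the RUNX letters matched 43 bases before it. The FOXO letters matched on the opposite strand of the IL2RG window, 177 bases before the start. The matches did not overlap one another, and the STAT and AP-1 letters were found in neither window. Over 35116 promoters of the same length, 28.7% held the ETS letters, 11% the RUNX letters, 2.98% the FOXO letters, 6.57% the STAT letters and 6.57% the AP-1 letters. A match is a description of letters and not of a bound site.

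Values are normalized counts, the reads on a gene divided by the DESeq size factor of the library. Library totals ran from 14955172 to 44771871 reads on genes, and 3 reads, taken as the floor, were worth between 1.19 and 4.09 normalized counts. RBM47, the induced gene, was higher at 25 ng/ml than untreated in every clone, at 10425 against 258 in WT6, 19877 against 168 in WT10 and 22084 against 73.8 in MUT3 cells. The WT6 libraries at 5 and 25 ng/ml stood apart from the other libraries. In these the median log2 change from the untreated library was 0.60 and 0.59 for the shortest of 5 equal groups of genes by transcript length, and -0.42 and -0.46 for the longest group. In every other library both medians lay between -0.08 and 0.06. Among 13 lymphoid and myeloid markers, CD3E, CD3G, CD2 and MS4A1 had 0 reads in all libraries and PTPRC, the pan-leukocyte marker, reached at most 6.18. CD8A was at 69.8 to 88.7 in WT10, 60.6 to 82.0 in MUT3 and 6.23 to 16.5 in WT6 cells, so that it exceeded IL7R in most WT10 libraries and in every MUT3 library. CD14 reached 73.5, in WT6 cells, and CSF1R reached 28.9, in WT10 cells. The summed level of the list was 70.8 to 107 in WT6, 116 to 153 in WT10 and 99.2 to 140 in MUT3 cells. The 8 breast cancer line markers summed to between 130394 and 190313. The mesenchymal intermediate filament gene VIM was the highest of them in all WT10 and MUT3 libraries and at 0 to 2.5 ng/ml in WT6 cells, and the epithelial keratin KRT7 was the highest in WT6 cells at 5 ng/ml (58106 against 58065) and 25 ng/ml (72761 against 51026). KRT7 was at most 176 in WT10 and MUT3 cells, while the epithelial cadherin CDH1 was at or below 19.9.

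IL7R, the ligand-binding alpha chain, had its highest level in WT6 cells and its clearest dose pattern in WT10 cells. In WT10 cells its normalized count was 29.2 untreated (27 reads), 43.4 at 1 ng/ml (45 reads), 62.8 at 2.5 ng/ml (63 reads), 108 at 5 ng/ml (273 reads) and 228 at 25 ng/ml (220 reads). The level was thus higher at each dose than at the dose below, as was that of 6.91% of the 13597 genes with at least 20 reads in the untreated and 25 ng/ml libraries together. Against the untreated library, the ratio was 1.49 at 1 ng/ml (0.902 to 2.49), 2.15 at 2.5 ng/ml (1.35 to 3.51), 3.71 at 5 ng/ml (2.50 to 5.74) and 7.80 at 25 ng/ml (5.22 to 12.1). Counting error alone covered the first of these steps and that from 1 to 2.5 ng/ml, but not the steps from 2.5 to 5 ng/ml (1.73, 1.31 to 2.31) and from 5 to 25 ng/ml (2.10, 1.75 to 2.52).

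MUT3 cells, from the same parental line as WT10, held IL7R at 45.02 untreated (36 reads), 33.3 at 1 ng/ml (30 reads), 32.6 at 2.5 ng/ml (33 reads), 43.2 at 5 ng/ml (47 reads) and 58.7 at 25 ng/ml (56 reads). The interval of every ratio to the untreated MUT3 library included 1, and that at 25 ng/ml was 1.30 (0.842 to 2.04). The ratio of WT10 to MUT3 was 0.649 (0.379 to 1.10) without doxycycline, 1.30 (0.803 to 2.14) at 1 ng/ml, 1.93 (1.25 to 3.03) at 2.5 ng/ml, 2.51 (1.84 to 3.50) at 5 ng/ml and 3.89 (2.89 to 5.31) at 25 ng/ml. The pair was therefore within counting error in the lowest 2 conditions and apart at the 3 higher doses.

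WT6 cells started about an order of magnitude above WT10, with a ratio of 10.5 (7.07 to 16.2) between the untreated libraries. Their IL7R count was 307 untreated (280 reads), 345 at 1 ng/ml (335 reads), 514 at 2.5 ng/ml (603 reads), 165 at 5 ng/ml (121 reads) and 201 at 25 ng/ml (161 reads). It was 1.68 times the untreated level at 2.5 ng/ml (1.45 to 1.94), and then 0.321 times as high at 5 as at 2.5 ng/ml (0.262 to 0.390). At 25 ng/ml it was 0.654 times the untreated level (0.535 to 0.796). Both lower values came from the libraries with the length trend. The IL7R transcript falls in the group of genes next to the longest, whose median log2 change was -0.23 at 5 ng/ml and -0.29 at 25 ng/ml, against -0.90 and -0.61 for IL7R. With trends in length and GC content removed, the 5 WT6 values were 289, 332, 467, 172 and 234 in dose order, so the values at 5 and 25 ng/ml still lay below the untreated one. RBM47 also was lower at 5 ng/ml (3966) than at 2.5 ng/ml (8094) in this clone.

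**Figure D1:**
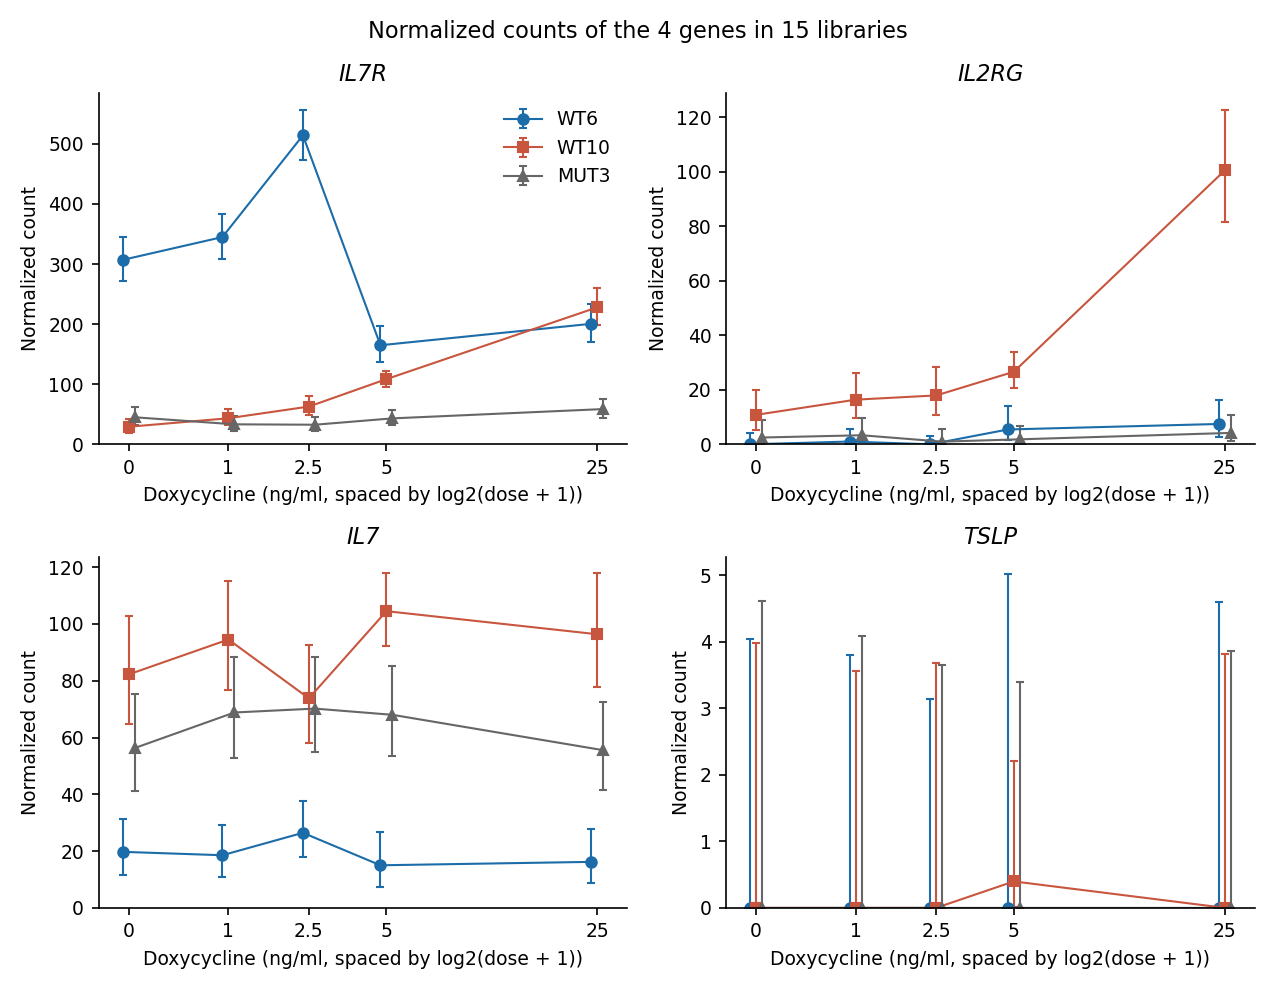
Normalized counts of IL7R, IL2RG, IL7 and TSLP (vertical axes, each from 0) against doxycycline in ng/ml (spaced by log2(dose + 1)) for WT6, WT10 and MUT3 cells, 1 library per point, with exact Poisson 95% intervals for counting error. IL7R goes from 29.2 to 228 and IL2RG from 10.8 to 101 in WT10 cells, IL7 is lowest in WT6 cells at each dose, and TSLP has a single read.

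By level, the 15 IL7R values ran from WT6 at 2.5 ng/ml down to untreated WT10. The 3 WT6 libraries at 0 to 2.5 ng/ml were the highest, followed by WT10 at 25 ng/ml (228), WT6 at 25 ng/ml (201) and WT6 at 5 ng/ml (165), neighbours that did not differ beyond counting error. WT10 at 5 ng/ml came next (108) and differed from its neighbours on both sides. From WT10 at 2.5 ng/ml (62.8) down to untreated WT10 (29.2), no neighbours differed beyond counting error, and all 5 MUT3 libraries lay in this stretch. At 25 ng/ml the ratio of WT6 to WT10 was 0.880 (0.713 to 1.08), so that the untreated gap between the wild type clones was no longer detectable at this depth.

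Set against the induced RNA instead of the dose, WT10 at 1 ng/ml and MUT3 at 5 ng/ml had RBM47 counts of 827 and 949 and IL7R counts of 43.4 and 43.2. At 25 ng/ml RBM47 reached 19877 in WT10 and 22084 in MUT3 cells, where IL7R was 228 and 58.7. In WT6 cells an RBM47 count of 8094 went with an IL7R count of 514, and a count of 10425 with 201, so IL7R followed neither the dose nor the RBM47 count in one direction there. Reads of the transgene and of endogenous RBM47 are pooled in these counts. The study reports low levels of the mutant protein although its mRNA was strongly expressed. Like RNA counts in WT10 and MUT3 cells are therefore not like amounts of protein.

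**Figure D2:**
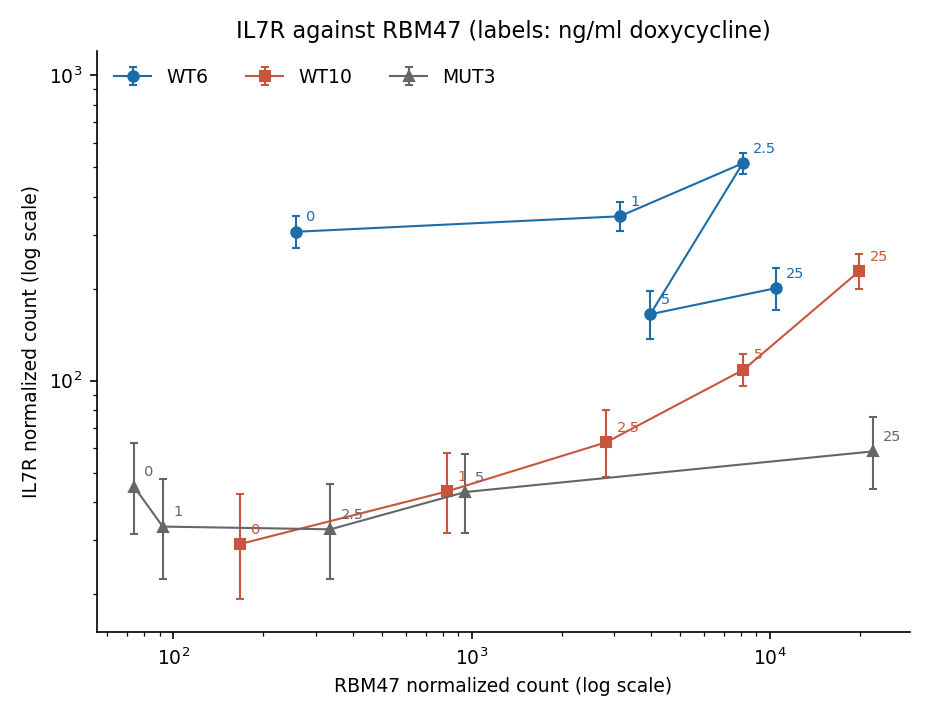
IL7R normalized count against RBM47 normalized count, both on log scales, for 5 libraries of each clone joined in dose order and labelled with the doxycycline dose in ng/ml. Bars are exact Poisson 95% intervals for counting error. At about the same high RBM47 RNA count, which is not a measure of protein, IL7R is 228 in WT10 and 58.7 in MUT3 cells. WT6 cells turn back between 2.5 and 5 ng/ml.

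Slopes on log2(dose + 1), fitted with limma on log2(normalized count + 1) over 12644 genes whose mean reached 10 normalized counts in every clone, place IL7R among all genes. IL7R and IL7 are the 2 members of 4 that met this filter. The IL7R slope was 0.62 ± 0.12 (SE) in WT10 cells, 0.13 ± 0.16 in MUT3 cells and -0.19 ± 0.09 in WT6 cells, against medians over all genes of -0.00, 0.00 and 0.01. In WT10 cells 18 genes (0.142%) had a higher slope, in MUT3 cells 142 (1.12%) did, and in WT6 cells 11.7% of genes had a lower one. The slope of WT6 minus that of WT10 was -0.81 ± 0.15. Without the WT6 libraries at 5 and 25 ng/ml, the fitted WT6 change from 0 to 25 ng/ml turned from -0.89 to 1.95, the latter extrapolated from 3 doses. By the 25 ng/ml and untreated libraries alone, IL7R and IL2RG were at least 2-fold higher in WT10 cells, as were 5.38% of genes, while 1.49% were at least 2-fold lower. Neither IL7R nor IL7 reached 2-fold in either direction in WT6 cells (11.2% of genes higher, 7.56% lower) or in MUT3 cells (0.658% higher, 0.627% lower).

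**Figure D3:**
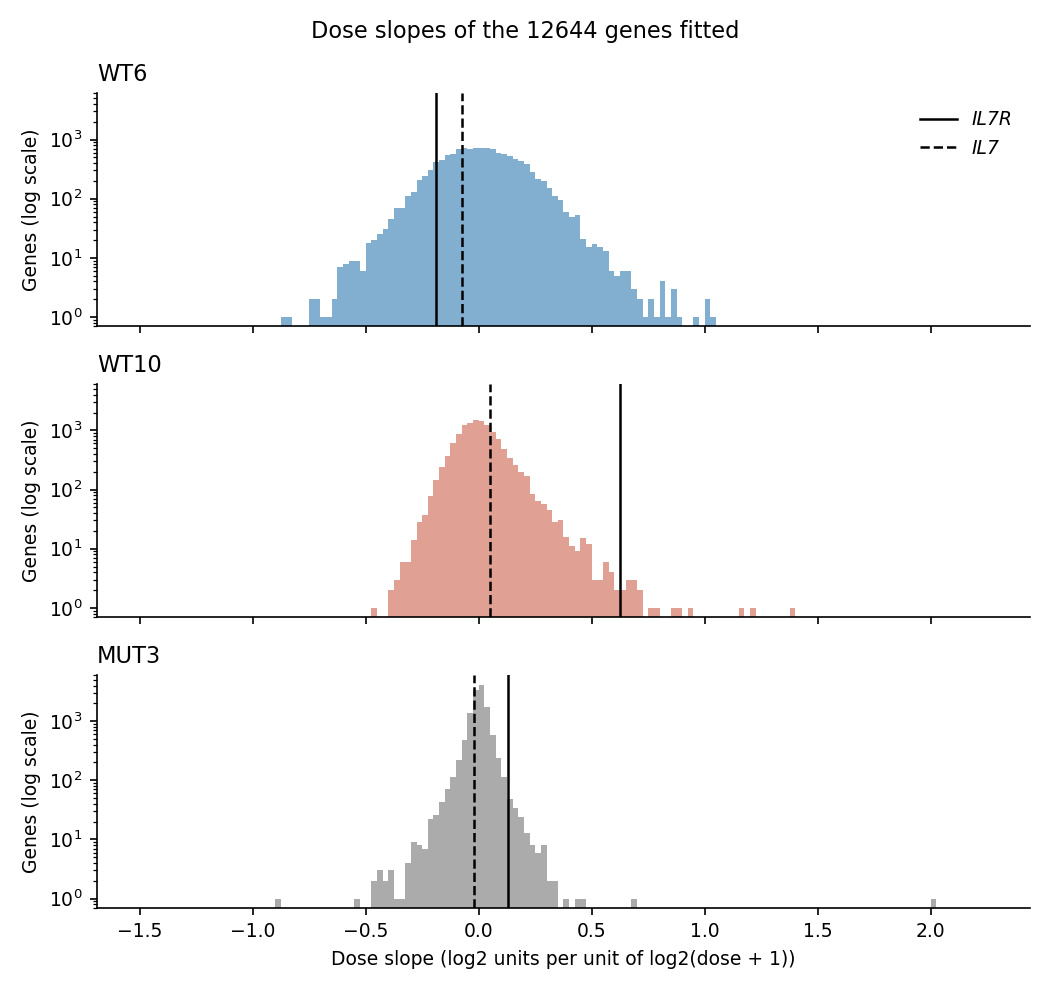
Distribution of the dose slopes of 12644 genes (horizontal axis, log2 units per unit of log2(dose + 1); vertical axis, number of genes on a log scale) in WT6, WT10 and MUT3 cells, with IL7R as a solid line and IL7 as a dashed line. IL7R is at 0.62 in the right tail in WT10 cells, at 0.13 in MUT3 and at -0.19 in WT6 cells, and IL7 is near 0 in all clones.

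IL2RG, the signalling gamma chain, was lower in reads than IL7R and was largely a transcript of WT10 cells. Its normalized count there was 10.8 untreated (10 reads), 16.4 at 1 ng/ml (17 reads), 17.95 at 2.5 ng/ml (18 reads), 26.6 at 5 ng/ml (67 reads) and 101 at 25 ng/ml (97 reads). The ratio to the untreated library was 2.46 (1.26 to 5.37) at 5 ng/ml and 9.29 (4.84 to 19.99) at 25 ng/ml. Most of that came with the last step, from 5 to 25 ng/ml, with a ratio of 3.78 (2.74 to 5.23), and the interval of each earlier step included 1. In WT6 cells there were 0, 1, 0, 4 and 6 reads in order of dose, a normalized count of at most 7.47. The value at 25 ng/ml was 2.27 times the floor of 3 reads set for the untreated library. Its counting interval (2.74 to 16.3) included that floor (3.29), and the interval of its ratio to the untreated library began at 1.34. The libraries at 5 and 25 ng/ml are those with the length trend. MUT3 cells gave 2, 3, 1, 2 and 4 reads, with a ratio of 25 ng/ml to untreated of 1.68 (0.240 to 18.5). WT10 cells exceeded MUT3 cells 24.0-fold (9.07 to 89.8) at 25 ng/ml, whereas the interval for the untreated pair (4.33, 0.922 to 40.6) included 1. The alpha and gamma chains thus differed in where they were read: WT6 cells had the most IL7R and hardly any IL2RG. GENCODE lists a locus on the same strand that overlaps IL2RG, and how reads shared with it were assigned is not given in the sources used here. CXorf65, which lies 616 bases from IL2RG, had 0 reads in the untreated and 25 ng/ml libraries of all clones.

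IL7, the ligand, was lower in WT6 than in the other clones at every dose. In WT10 cells its normalized count was 82.2, 94.5, 73.8, 105 and 96.4 in order of dose. MUT3 cells gave 56.3, 68.8, 70.2, 68.0 and 55.5. WT6 cells gave 19.7, 18.5, 26.4, 14.99 and 16.2. The ratio of WT10 to MUT3 was above 1 at every dose. Its interval included 1 at 0 (1.46, 0.998 to 2.16), 1 (1.37, 0.989 to 1.92) and 2.5 ng/ml (1.05, 0.749 to 1.48). This ratio exceeded counting error at 5 (1.54, 1.18 to 2.02) and 25 ng/ml (1.74, 1.23 to 2.48). Every ratio of a treated to the untreated library of its clone had an interval that included 1. Between successive doses, the step from 2.5 to 5 ng/ml in WT10 cells (1.42, 1.09 to 1.86) exceeded counting error, and the other steps of the 3 clones did not. The slopes were 0.05 ± 0.05 in WT10, -0.02 ± 0.06 in MUT3 and -0.07 ± 0.09 in WT6 cells. Untreated WT6 cells had 0.240 times the IL7 level of WT10 cells (0.135 to 0.405), the opposite order to IL7R. The gene lies on the minus strand at chr8:79587978-79717758 (hg19), has a canonical transcript of 2016 bases, and overlaps 2 genes on its own strand and 2 on the opposite strand. Of these, ZC2HC1A on the opposite strand had between 127 and 223 normalized counts. Whether the libraries keep the strand is not given in the sources used here, so without strand the reads of the shared stretch cannot be told apart.

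TSLP, the other ligand of the IL7R chain, was represented by 1 read among the 300871175 reads on genes. That read came from WT10 cells at 5 ng/ml, the most deeply sequenced library, where it was worth 0.397 normalized counts. The other libraries had 0 reads, which allows a level of up to 2.56 to 4.09 normalized counts per library (3 reads), so no dose pattern was detectable at this depth. CRLF2, the chain that pairs with IL7R in the TSLP receptor, had 0 reads in all 15 libraries.

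Per kilobase of the canonical transcript, which allows levels of different genes to be set side by side, the receptor chains and the ligand IL7 met in WT10 cells at the highest dose. There the normalized count per kilobase was 49.7 for IL7R, 67.9 for IL2RG and 47.8 for IL7, compared with 6.37, 7.31 and 40.8 in the untreated library. In untreated WT6 cells it was 66.9 for IL7R, 9.79 for IL7 and 0 for IL2RG. Untreated MUT3 cells had 9.82 for IL7R, 27.9 for IL7 and 1.69 for IL2RG.

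The nearest genes of the table on each side showed no pattern like that of IL7R or IL2RG in WT10 cells. SPEF2, 38084 bases from IL7R, was at 16.2 untreated and 13.5 at 25 ng/ml there, and CAPSL, 24685 bases on the other side, had 0 reads in both libraries. MED12, 6435 bases from IL2RG, was at 1481 and 1254. PKIA, 70476 bases from IL7, was at 279 untreated and 477 at 25 ng/ml in WT10 cells (ratio 1.71, 1.46 to 1.997), while IL7 itself was at 82.2 and 96.4. Next to TSLP, 14295 bases away, WDR36 was at 1216 and 1254.

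After centring on each clone, the genes most like IL7R over the 15 libraries, among 12643 compared, included CPEB4 (Pearson r = 0.94), INHBA (0.92), FAM55C (0.91) and WDR44 (0.90). In WT10 cells CPEB4, a regulator of cytoplasmic polyadenylation, went from 528 untreated to 1043 at 25 ng/ml, and INHBA, a subunit of activins, from 77.9 to 176. For IL7 the most alike were LOC100506866 (0.88), RICTOR (0.87), ZNF132 (0.86), ZNF283 (0.85) and CNST (0.85). These correlations describe libraries that share clones, doses and size factors, and the highest of so many coefficients are high by selection.

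Of 69 genes in 5 lists of the pathway, 54 met the filter and were tested with limma in the fit above. In WT6 cells 7 rose and 30 fell with the dose at a Benjamini-Hochberg adjusted p under 0.05, next to 29.2% of all genes rising and 28.3% falling. In WT10 cells 3 rose and 10 fell, next to 10.2% and 9.83% of all genes. In MUT3 cells 0 were called in either direction, as for all genes (0% and 0%), 0 had an unadjusted p under 0.05, and edgeR and DESeq2 on the recovered reads also called 0. RBM47 itself, the induced gene, was among the genes not called in MUT3 cells (slope 2.005 ± 0.304). The 0 calls there therefore cannot show that no gene changed. With MUT3 fitted alone, without the spread of the other clones, 6 had an unadjusted p under 0.05 and 0 were called, while 176 of all 12644 genes were called. Averaged over WT6 and WT10, the slope was higher than that of MUT3 for 0 of the 54 and lower for 19, where 10.1% of all genes were higher and 14.6% lower. The slope in WT6 was higher than in WT10 for 3 and lower for 4, next to 7.28% and 7.09% of all genes. The median slope of the 54 genes was -0.09 in WT6, -0.04 in WT10 and 0.02 in MUT3 cells, and over all genes it was 0.01, -0.00 and 0.00. Without the WT6 libraries at 5 and 25 ng/ml, 1 of the 54 was called in WT6, 23 in WT10 and 10 in the difference from MUT3. Without the 25 ng/ml libraries of the 3 clones the last 2 counts were 0 and 0, with 10 and 15 genes at an unadjusted p under 0.05, and that in WT6 was 24. The WT6 slopes given for the lists below include the libraries at 5 and 25 ng/ml, which carry the length trend.

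Among the other receptors and ligands of the gamma chain family, 4 of 13 were tested. IL15, a ligand of the same family that signals through the gamma chain, rose in both wild type clones, with slopes of 0.35 ± 0.04 (adjusted p = 2.11e-05) in WT6 and 0.24 ± 0.05 (adjusted p = 0.00279) in WT10 cells from limma. Its normalized count went from 85.5 to 259 in WT6 and from 89.8 to 173 in WT10 cells, and it was 65.0 and 83.8 in MUT3 cells, where the slope was 0.12 ± 0.06. The mean wild type slope minus that of MUT3 was 0.17 ± 0.07 and was not called (limma adjusted p = 0.0616). Its partner chain IL15RA fell in both, with slopes of -0.15 ± 0.03 and -0.13 ± 0.03. IL13RA1, a receptor chain for IL-13, fell in WT6 cells (-0.16 ± 0.03), and its WT10 slope was -0.05 ± 0.03 (limma adjusted p = 0.204). The list had 6 genes with 0 reads in every WT6 and WT10 library, namely CRLF2, IL2RA, IL9R, IL2, IL9 and IL21.

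In the list of kinases, STATs and the PI3K-AKT route, 23 of 24 genes were tested, and 4 rose and 12 fell in WT6 against 1 and 4 in WT10 cells. Over all genes 29.2% rose and 28.3% fell in WT6, and 10.2% and 9.83% in WT10 cells. JAK1, the kinase bound to IL7R, was high and not called in any clone, with 1880 untreated and 2064 at 25 ng/ml in WT6, 2106 and 2124 in WT10, and 2429 and 2563 in MUT3 cells. JAK3, the kinase bound to IL2RG, failed the filter. It had 14.2 normalized counts untreated and 61.0 at 25 ng/ml in WT6, 4.33 and 11.4 in WT10 cells, and at most 2.97 in MUT3 cells. STAT5B fell in both wild type clones, by slopes of -0.12 ± 0.03 (limma adjusted p = 0.00198) in WT6 and -0.10 ± 0.03 (adjusted p = 0.0182) in WT10 cells. Its paralog STAT5A was not called and had 57.2 to 99.7 normalized counts in WT6, below the 311 to 410 of WT10 cells. PTK2B, a focal adhesion kinase relative, rose in both clones (0.29 ± 0.07 and 0.19 ± 0.06). In MUT3 cells PTK2B was at 23.8 untreated and 51.3 at 25 ng/ml (slope 0.16 ± 0.11). Its mean wild type slope minus that of MUT3 was 0.08 ± 0.12 and was not called (limma adjusted p = 0.650). LYN and PIK3CD, a SRC family kinase and a PI3K catalytic subunit, rose in WT6 cells (0.14 ± 0.03 and 0.15 ± 0.03), with WT10 slopes of 0.09 ± 0.03 and -0.01 ± 0.03 that were not called. The kinases TYK2 (-0.19 ± 0.03 and -0.10 ± 0.03) and AKT2 (-0.16 ± 0.03 and -0.12 ± 0.03) fell in both. JAK2 fell in WT6 cells (-0.24 ± 0.07) and had a slope of -0.00 ± 0.06 in WT10 cells.

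Of the feedback inhibitors and phosphatases, 11 of 12 were tested, with 1 rising and 6 falling in WT6 and 0 rising and 3 falling in WT10 cells. The shares of all genes rising and falling were 29.2% and 28.3% in WT6, and 10.2% and 9.83% in WT10 cells. SOCS2 and CISH, which STAT5 is known to induce, were not called in any clone, and CISH stayed between 10.6 and 46.3 normalized counts. SOCS3, another cytokine-induced inhibitor, fell from 1825 to 1049 in WT6 (slope -0.18 ± 0.02, limma adjusted p = 4.23e-05) and from 1192 to 796 in WT10 cells (-0.13 ± 0.02, adjusted p = 0.00193). SOCS1 rose in WT6 cells (0.30 ± 0.07) and had a WT10 slope of -0.19 ± 0.07 that was not called. The phosphatase PTPN11 (-0.26 ± 0.04) and the ubiquitin ligase CBL (-0.21 ± 0.04) fell in WT6 cells, with WT10 slopes of -0.06 ± 0.04 and -0.10 ± 0.04.

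Survival and growth targets counted 11 tested genes of 12, of which 1 rose and 7 fell in WT6 and 1 rose and 1 fell in WT10 cells. Among all genes 29.2% rose and 28.3% fell in WT6, and 10.2% and 9.83% in WT10 cells. BCL2, the survival gene linked to IL-7 in lymphocytes, fell from 188 to 56.1 in WT6 (slope -0.34 ± 0.07, limma adjusted p = 0.000837) and from 338 to 190 in WT10 cells (-0.18 ± 0.05, adjusted p = 0.0203), and was 415 and 382 in MUT3 cells. In WT6 cells BCL2 was at 169 at 1 and 182 at 2.5 ng/ml. The lower BCL2 values there came at 5 (129) and 25 ng/ml, from the libraries with the length trend. The slope of its wild type mean minus that of MUT3 was -0.26 ± 0.06 (limma adjusted p = 0.0105). CCND3, a D-type cyclin, rose in both clones (0.13 ± 0.03 and 0.11 ± 0.03). Its mean wild type slope minus that of MUT3 was 0.10 ± 0.04 and was not called (limma adjusted p = 0.0783). The kinase PIM3 (-0.16 ± 0.03) and the transcription factor FOXO3 (-0.15 ± 0.04) fell in WT6 cells, with WT10 slopes of -0.06 ± 0.03 and -0.08 ± 0.04 that were not called.

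Transcription factors known to act on the IL7R gene in lymphocytes included 5 tested genes of 8. In WT6 cells 0 rose and 3 fell, next to 29.2% and 28.3% of all genes. In WT10 cells 0 rose and 1 fell, next to 10.2% and 9.83% of all genes. RUNX1 fell in both clones, by slopes of -0.17 ± 0.03 (limma adjusted p = 0.0001) and -0.10 ± 0.03 (adjusted p = 0.0160). The glucocorticoid receptor NR3C1 (-0.18 ± 0.03) and ETS1 (-0.08 ± 0.03) fell in WT6 cells, and their WT10 slopes of -0.06 ± 0.03 and 0.01 ± 0.03 were not called. RUNX3 had 0 reads in all clones, and SPI1, the myeloid and B lymphoid factor PU.1, had 0 reads in both wild type clones.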

How the data were processed

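PolyA RNA was sequenced on an Illumina HiSeq 2000 from 15 libraries of 3 clones at 5 doses. The authors mapped the paired-end reads to hg19 with STAR, assigned them to genes with HTSeq 0.5.4 (version per the submitters' processing notes) and deposited 1 table of normalized signal, each count divided by the DESeq size factor of the library. The annotation behind the counts and the strand setting beyond the default are not given in the sources used here. Divided by what 1 read is worth, 100% of the values were whole (tolerance 0.001 reads). Of the reads in the table, 56.5 to 59.6% per library were in HTSeq's tally of reads assigned to no gene feature. That tally does not tell where those reads lay in the genome. The 5 tally lines were left out.

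Dose slopes were fitted with limma 3.58.1 in R 4.3.3 on log2(normalized count + 1), a scale that understates the change of low genes. Each clone had its own intercept and its own slope on log2(dose + 1), with precision weights from vooma and 9 residual degrees of freedom. Genes entered where their mean reached 10 normalized counts in every clone, and p-values were adjusted over all of them by the method of Benjamini and Hochberg. The spread between libraries around these lines is the only error in the fit, since no condition was repeated. Ratios of 2 libraries have exact (Clopper-Pearson) binomial intervals and counts have exact Poisson intervals, both from recovered reads with scipy 1.17.1. edgeR 4.0.16 and DESeq2 1.42.0 on the recovered reads, other dose scales, pseudocounts and filters, each dose left out, and trends in transcript length and GC content removed were alternatives. Symbols were matched to GENCODE release 44 on hg19 for 91.8% of genes, 1890 of them by an older symbol.

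The members and lists were chosen with earlier results of these data known. All members were described. From each list, up to 3 rising and 3 falling genes with the largest mean wild type slope among those called in WT6 or WT10 were named, plus CRLF2, JAK1, JAK3, STAT5A, STAT5B, SOCS2 and CISH whatever their values. Likeness was ranked by Pearson's r for members in the fit, with the 5 highest taken for each, and some items are not reported here.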

Additional observations from a re-analysis of the deposited data

Results flagged for a closer look

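Of the 54 pathway genes tested, 7 had a dose slope in WT6 cells that differed from that in WT10 cells, by limma's test of the difference with Benjamini-Hochberg adjustment over all genes, where the 2 clones also come from different parental lines by the study's methods. The slope was higher in WT6 for 3 of them and lower for 4, next to 7.28% and 7.09% of all genes. The slope in WT6 was higher by 0.49 ± 0.10 for SOCS1 (adjusted p = 0.0148), by 0.15 ± 0.05 for the PI3K subunit PIK3CD (adjusted p = 0.0412) and by 0.14 ± 0.03 for the kinase FYN (adjusted p = 0.0187). SOCS1 went from 19.7 to 54.8 normalized counts in WT6 and from 74.6 to 42.5 in WT10 cells. For the phosphatase PTPN11 the difference of WT6 minus WT10 was -0.20 ± 0.05 (limma adjusted p = 0.0268). It was -0.14 ± 0.05 for PIK3CB (adjusted p = 0.0452), -0.13 ± 0.03 for the survival gene MCL1 (adjusted p = 0.0274) and -0.13 ± 0.03 for the adaptor SH2B3 (adjusted p = 0.0263). The part of the WT6 libraries at 5 and 25 ng/ml, which carry a trend with transcript length, was not tested for these genes.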

How the results depend on the processing

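No paired analysis was possible because each clone and dose has 1 library and all carry the same replicate number. Of 16 alternatives, 14 left the fitted IL7R change in WT10 cells within the spread of the main value (2.94 on the log2 scale from 0 to 25 ng/ml). It was 2.302 with a linear dose and 1.60 for any doxycycline against none, and 2.89 to 3.46 with 1 dose left out. In WT6 cells the change was -0.89, -0.11 with the RBM47 count in place of the dose, -0.15 for any doxycycline, -1.41 to -0.65 with 1 dose left out, and 1.95 without the WT6 libraries at 5 and 25 ng/ml, an alternative chosen after seeing the data. In MUT3 cells it was 0.61, and -0.18 to 1.11 with 1 dose left out, the lowest without 25 ng/ml.

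Pathway genes called by limma in WT10 cells numbered 13 in the fit reported, 8 with a linear dose, 24 with length and GC trends removed, 23 without the WT6 libraries at 5 and 25 ng/ml, and 0 to 17 with 1 dose left out. The 0 was without 25 ng/ml, and the count was 4 without 1 ng/ml and 8 without the untreated libraries. In WT6 cells 37 became 23 with each clone fitted alone, 1 without the WT6 libraries at 5 and 25 ng/ml, and 24 to 39 with 1 dose left out. For wild type against MUT3, 19 became 9 with a linear dose, 10 without those WT6 libraries, and 0 to 24 with 1 dose left out, with 0 without 25 ng/ml, 2 without 1 ng/ml and 9 without the untreated libraries. With the RBM47 count in place of the dose, 0 were called in WT6, WT10 and their difference from MUT3, with 19, 11 and 15 genes at an unadjusted p under 0.05. For any doxycycline against none the 3 counts were also 0, with 5, 0 and 1 at an unadjusted p under 0.05. edgeR called 37, 11 and 19 and DESeq2 39, 13 and 19 with the dose scale reported. In MUT3 cells 0 were called under all 16 alternatives. The cause was not tested. IL2RG in WT6 and MUT3 cells and TSLP rest on 0 to 6 reads per library, which limits any change that could be seen.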
